A study of Mus musculus with 15 samples.

Results

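Mid-pachytene spermatocytes were examined in single-cell RNA-seq libraries from the testes of DBA/2J mice that had been given JQ1, an inhibitor of bromodomain proteins of the BET family that includes the testis protein BRDT, or had not. A cell was kept when it had at least 500 genes, at least 1000 UMIs (unique molecular identifiers, each counting 1 captured RNA molecule) and under 30% of UMIs on mitochondrial genes. A kept cell was called mid-pachytene when it carried at least 3 UMIs on Gm12648, Gm10619, Gm14244, 2700054A10Rik and Piwil1 together, and more UMIs on those 5 genes than on the 5 genes Pou5f2, 4930581F22Rik, 4932702P03Rik, Chdh and Pabpc6. It also had to carry at least 1 UMI on Sycp1 or Sycp3, and fewer than 2 of Aurka, Cdk1, Rhcg, Spc25, Acrv1, Prdm9 and Meiob. This rule found 4244 cells among 76494 kept cells. The members were thus chosen by their measured UMIs on these genes, whose levels are given only as a description.

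The 15 libraries came from 15 mice, 1 testis each, with 3 mice in each of 5 groups, all male and of 1 strain. Treated mice (T) received JQ1 at 50 mg/kg daily for 3 wk by intraperitoneal injection and were analysed at 10 wk of age. Recovery mice (R) received the same course and were analysed 6 wk after the last dose, at 16 wk. Vehicle controls received DMSO diluted in hydroxypropyl-β-cyclodextrin on the same schedule and were analysed at 10 wk (VC-T) or 16 wk (VC-R). Untreated controls (UC) were 15 wk old and were not injected, so age, injection and group cannot be told apart in the comparisons with UC. The comparisons asked what 3 wk of JQ1 changed in these spermatocytes and what was still changed 6 wk later.

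Pachytene is the long middle stage of meiotic prophase I, in which paired homologous chromosomes are joined along their length by the synaptonemal complex and crossovers are formed. During this stage the X and Y chromosomes are packed into the sex body and their genes are silenced, while many autosomal genes for later spermatid functions begin to be transcribed. The same stage makes pachytene piRNAs, small RNAs cut from long non-coding precursors and bound by PIWI proteins such as PIWIL1, and it relies on the transcription factors MYBL1 and TCFL5.

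The libraries differed in ways that bear on every comparison. They held 9673587 to 98724982 UMIs, and 2569 to 13471 kept cells. The mid-pachytene cells had library medians of 2948 to 12283 UMIs. An estimate of free RNA, which is RNA that enters droplets from broken cells, gave 6.15% to 27.5% of the UMIs of these cells in 14 libraries and 66.9% in R 3. Its profile came from deposited barcodes with under 500 genes or under 1000 UMIs. The deposited barcodes per library equal in number the paper's cells before filtering. The profile is therefore that of low-count called cells and not of empty droplets, which limits every result with free RNA subtracted. VC-T 2 held only 11 mid-pachytene cells, with 122390 UMIs in all. VC-T 1, which the study left out of its own tests of expression, stood with the T libraries in several measures given beside the results, and it was left out of the gene tests here. Of 101610 barcodes, 1276 sequences occurred in more than 1 library, and 4 of these were mid-pachytene barcodes.

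The defining genes were checked first, as a description, because they chose the cells. Piwil1 was detected in a median of 95.3% of the mid-pachytene cells of a library, against 55.6% of late pachytene cells, 14% of early prophase cells and 5.51% of round spermatids. Gm12648 was detected in 81.8%, 31.7%, 0% and 1.84% of the same cell sets. Late pachytene cells (1611) were those in which the second set of 5 genes had at least 3 UMIs and outnumbered the first, with the other conditions unchanged. Early prophase cells (435) had Sycp1 or Sycp3 and at least 2 UMIs on Meiob plus Prdm9. Round spermatids (17596) had no Sycp1 or Sycp3 and at least 2 of 6 spermatid markers. Cells of the last 2 sets also had to carry fewer than 3 UMIs on each set of 5 genes. The differences in Piwil1 and Gm12648 between the cell sets were thus partly imposed by these definitions. Sycp1, a core protein of the synaptonemal complex, was detected in 86.0% to 98.6% of mid-pachytene cells and Sycp3 in 77.0% to 100%. Genes outside the rule also carried the spermatocyte label: Hormad1, which marks chromosome axes, was detected in a median of 80.7%, Tcfl5 in 89.0%, Mybl1 in 51.8% and Brdt in 76.3% of the cells.

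The boundary of the rule fell within a continuous range of values. Cells just inside it, with exactly 3 UMIs on the first gene set, numbered 2 to 96 per library, and 6 to 134 cells per library with 2 UMIs were otherwise eligible and lay just outside. Protamine mRNAs, which are made in elongating spermatids, were present in nearly every droplet of most libraries: Prm1 was detected in a median of 99.1% of mid-pachytene cells, with a range of 8.39% to 100%, and in a median of 99.8% of round spermatids. The 9 markers of elongating spermatids therefore served to follow RNA of other cells in the mid-pachytene profile.

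Of the 25 genes that led the mid-pachytene profile, 5 belonged to the rule, and the other 20 comprised 10 protein-coding genes, 9 non-coding RNAs and 1 gene with no annotated type. Levels are counts per 1000000 UMIs (CPM) of the summed cells, averaged over 15 libraries. Gm21221, a non-coding RNA on chromosome 5, reached 144 CPM against 27.4 in late pachytene cells, 17.1 in early prophase cells and 0.875 in round spermatids. Kcnk10, a potassium channel gene, reached 168 CPM against 44.8, 9.99 and 3.98. Hist1h1t, the testis variant of the linker histone, stood at 295 CPM against 109, 61.4 and 7.14. Cyp19a1, which encodes aromatase, stood at 437 CPM against 165, 19.1 and 15.5. All 4 genes were highest in mid-pachytene cells among the 4 cell sets.

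Other leading genes were shared with earlier cells. Hist1h2ba, a testis-specific histone H2B, was at 139 CPM in mid-pachytene cells and 286 in early prophase cells. Tex12, a central element protein of the synaptonemal complex, was at 130 and 211 CPM, and the cyclin gene Ccne2 at 66.6 and 118 CPM. The plot of leading genes by cell set shows that these genes were low in late pachytene cells, between 17.5 and 26.2 CPM.

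**Figure D1:**
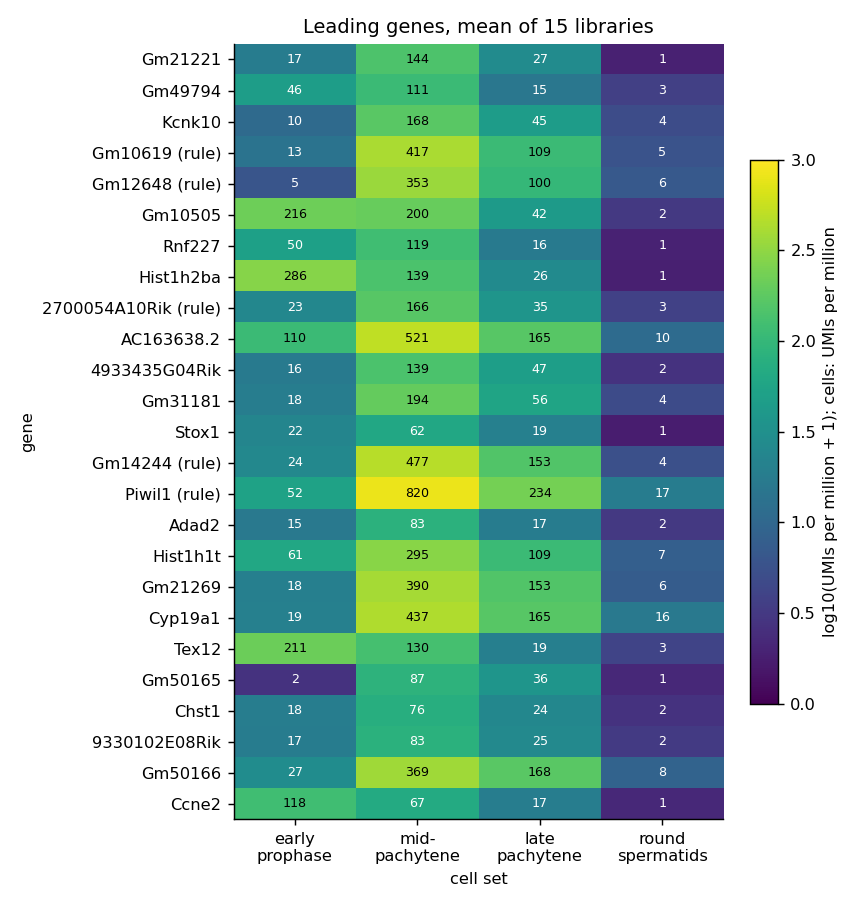
Mean level over 15 libraries (CPM; colour on a log10 scale) of the 25 genes that led the mid-pachytene profile against all other kept cells, in early prophase, mid-pachytene, late pachytene and round spermatid cells. Genes of the membership rule are marked and are shown as a description; most leading genes peak in the mid-pachytene column, and Hist1h2ba, Tex12 and Ccne2 are higher in early prophase.

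The mid-pachytene cells also varied among themselves. Between 9.09% and 32.2% of them per library had no UMI on the second gene set, and these had fewer UMIs per cell, with library medians of 2308 to 5779 against 3156 to 13004 for the others. In the cells without such UMIs, Hist1h2ba averaged 305 CPM against 121 in the others, Tex12 211 against 117, Adad2 169 against 74.2 and Gm10505 311 against 185. Kcnk10 and Hist1h1t differed little between them, at 157 against 167 CPM and 310 against 296 CPM. This split uses genes of the rule and was not tested.

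The promoters of the leading genes were read from RefSeq on GRCm38.p6, since the non-coding RNAs and Piwil1 were high in the same cells. Of the 25 genes, 15 had an entry, with 19 start sites. In the 250 bases before the start, AACNGTT was the only form of the MYB core searched. It was found on either strand in 2 of 19 promoters (10.5%), those of Gm14244 and Chst1, a sulfotransferase gene. Of all 32851 promoters, 3.80% held it. Other forms of a MYB site were not looked for, in Piwil1 or elsewhere. The E-box CACGTG was found in 2 of 19 (10.5%), those of Piwil1 and Tex12, and in 6.02% of all. GTTGCCA, a core of the RFX motif, TGACGTCA, the CRE, and CTCGCGAGA were found in none of the 19, and in 3.66%, 1.55% and 0.569% of all promoters. The 4 promoters with a match are shown 5′ to 3′ on the strand of the gene, with the matched letters in capitals; a match is a description of the sequence and no evidence of binding.
Piwil1: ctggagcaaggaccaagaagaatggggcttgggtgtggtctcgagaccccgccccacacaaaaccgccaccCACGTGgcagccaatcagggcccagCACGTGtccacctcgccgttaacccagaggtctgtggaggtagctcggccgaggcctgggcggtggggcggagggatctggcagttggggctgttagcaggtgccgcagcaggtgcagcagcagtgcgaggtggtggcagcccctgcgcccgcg
Tex12: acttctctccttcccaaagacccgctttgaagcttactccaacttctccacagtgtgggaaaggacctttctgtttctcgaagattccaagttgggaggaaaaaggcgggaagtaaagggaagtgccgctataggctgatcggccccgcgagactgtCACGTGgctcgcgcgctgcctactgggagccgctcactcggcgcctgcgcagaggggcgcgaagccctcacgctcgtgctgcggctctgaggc
Gm14244: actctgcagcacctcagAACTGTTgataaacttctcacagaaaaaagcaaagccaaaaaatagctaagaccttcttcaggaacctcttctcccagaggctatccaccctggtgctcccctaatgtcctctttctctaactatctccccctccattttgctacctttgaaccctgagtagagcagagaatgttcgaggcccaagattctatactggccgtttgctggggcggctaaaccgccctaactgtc
Chst1: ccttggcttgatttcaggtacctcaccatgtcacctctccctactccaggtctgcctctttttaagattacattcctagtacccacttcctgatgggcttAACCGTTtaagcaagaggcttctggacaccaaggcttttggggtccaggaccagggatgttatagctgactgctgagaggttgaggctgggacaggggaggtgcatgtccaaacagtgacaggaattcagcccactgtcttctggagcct

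The Piwil1 window is chr5:128735996-128736245 on the plus strand, the Tex12 window chr9:50561269-50561518 on the minus strand, the Gm14244 window chr2:127691604-127691853 on the plus strand and the Chst1 window chr2:92600867-92601116 on the plus strand. In GENCODE vM21 the Piwil1, Chst1 and Tex12 genes begin further upstream, at 128702524, 92599707 and 50561325. The start sites used here for these genes therefore lie inside the annotated genes. Piwil1 carried 2 E-boxes, 179 and 154 bases before the start. Among the 21 genes of these cells that the naming rule took for T against UC, 11 had a promoter entry, with 14 start sites, and none of the 5 motifs was found in them.

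The gene groups of the stage were present in every library. The summed level of 15 synaptonemal complex and axis genes was 3565 to 4969 CPM over the 15 libraries, that of 22 piRNA pathway genes 4043 to 5362 CPM, that of 27 recombination genes 1378 to 1847 CPM and that of 14 BET protein and P-TEFb genes 1115 to 1494 CPM. R 3 gave the lowest value in each of the 4. The 26 spermatid genes first transcribed in pachytene were the most abundant group, at 25930 to 31180 CPM, led by Ldhc, the testis lactate dehydrogenase, at 6526 CPM on average. Brdt averaged 288 CPM in mid-pachytene cells, 353 in early prophase cells, 176 in late pachytene cells and 60.2 in round spermatids.

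X-linked genes were nearly silent in the mid-pachytene cells. They took 0.0580% to 0.660% of UMIs, against 0.703% to 2.42% in early prophase cells, 0.0619% to 1.19% in late pachytene cells and 1.16% to 1.82% in round spermatids of the same libraries. The mid-pachytene value was below the early prophase and the round spermatid value in 15 of 15 libraries, and below the late pachytene value in 14 of 15; in UC 2 it was 0.109% against 0.0619%. Of 1084 X-linked genes, 27 (2.49%) reached 10 CPM, against 8343 of 30336 autosomal genes (27.5%).

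**Figure D2:**
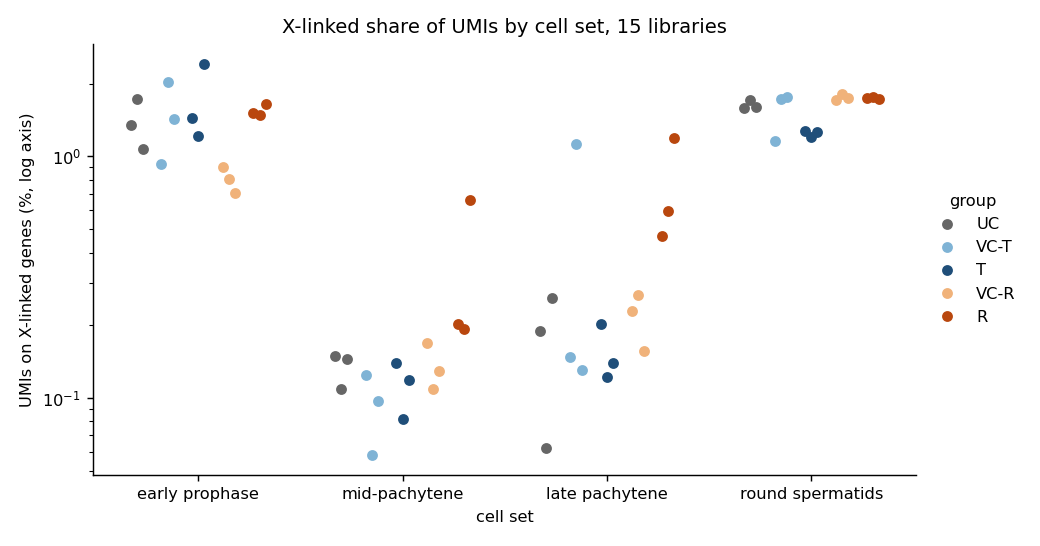
Percent of UMIs on X-linked genes (log axis) in 4 cell sets of each of the 15 libraries, coloured by group. Mid-pachytene cells lie between 0.0580% and 0.660%, below the early prophase and round spermatid values of every library, and the R libraries hold the 3 highest mid-pachytene values.

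Housekeeping genes on the X showed the silencing one by one, beside autosomal copies that are known to stand in for them in the male germ line. Rpl39 was at 2.33 CPM in mid-pachytene cells against 198 in early prophase cells, while its autosomal copy Rpl39l was at 1123 against 647 CPM. Rpl36a was at 2.67 and 101 CPM, and Rpl36al at 519 and 318 CPM. Pgk1, for a glycolytic kinase, was at 2.70 and 16.5 CPM, and Pgk2 at 85.3 and 198 CPM. The mean of this copy was thus higher in the early prophase profile, and it reached 676 CPM in round spermatids. Pgk2 was detected in a median of 31.5% of mid-pachytene and 33.3% of early prophase cells. Prm1, a spermatid RNA, was detected in a median of 100% of early prophase cells, and the part of spermatid RNA in the Pgk2 values was not tested. Pdha1 was at 0.0957 CPM and Pdha2, the copy of this pyruvate dehydrogenase subunit, at 229 CPM. Over the libraries the 9 X-linked genes summed to 0 to 59.3 CPM and the 10 autosomal copies to 3681 to 4611 CPM.

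Spermatid genes were among the highest of the X-linked genes that remained. Their part of all remaining X-linked RNA was not summed. Akap4, a sperm tail scaffold gene, led at 80.9 CPM with a range over libraries of 16.9 to 325 CPM, and Tsga8 followed at 65.9 CPM, from 23.1 to 252 CPM. Ndufa1, a subunit of respiratory complex I, differed from these in that it was present at a narrow range of 24.5 to 49.0 CPM in every library.

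The share of kept cells that were mid-pachytene was 13.5%, 17.6% and 20.6% in T, against 3.78%, 2.26% and 2.5% in UC. It was 18.0%, 0.290% and 3.09% in VC-T, 3.90%, 2.88% and 4.695% in VC-R, and 1.59%, 1.40% and 0.646% in R. The T libraries were thus above all controls except VC-T 1, and the R libraries were below all UC and VC-R libraries.

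T averaged 17.2% ± 3.58 (SD, n = 3) and its 6 controls, UC and VC-T, 4.98% ± 6.47. The difference did not pass an exact two-sided permutation test (p = 0.0714, adjusted p = 0.190 over 8 values, Benjamini-Hochberg), for which the smallest possible p is 0.0238. Without VC-T 1 the controls averaged 2.39% and the groups did not overlap (exact p = 0.0357, the smallest possible, adjusted p = 0.0714). R averaged 1.21% ± 0.500 and its 6 controls, UC and VC-R, 3.34% ± 0.942, with no overlap (exact p = 0.0238, the smallest possible, adjusted p = 0.0635). A share is relative to the other cells of the suspension, so more mid-pachytene cells and fewer others cannot be told apart.

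Depth touched the second of these shares. When every cell was thinned to 2000 UMIs before the rule was applied, R averaged 3.68% and its controls 5.24%, and the groups overlapped (exact p = 0.190). Under that rule VC-T 2 had 47 mid-pachytene cells and R 3 had 220. Before thinning these cells had medians of 25407 UMIs in VC-T 2 and 26796.5 in R 3. Under the main rule the medians were 7130 and 5991 UMIs. Mid-pachytene cells as a share of mid and late pachytene cells together were 74.1% ± 2.22 in T against 66.3% ± 16.9 in its controls (exact p = 0.548), and 62.1% ± 17.4 in R against 73.2% ± 6.37 (exact p = 0.214).

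**Figure D3:**
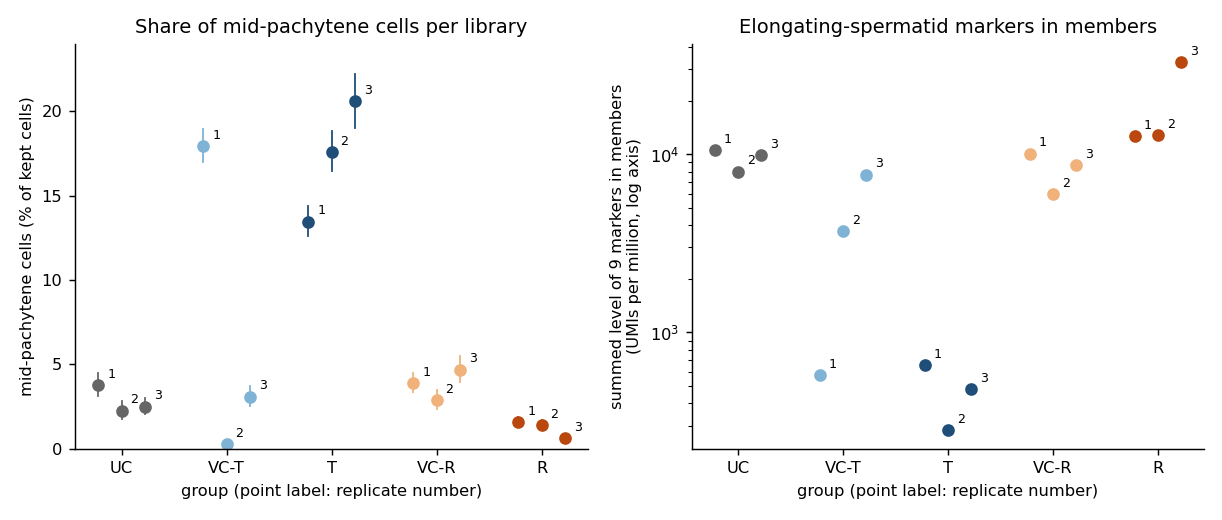
Left, mid-pachytene cells as a percent of kept cells per library, with 95% exact binomial intervals that cover counting error only; right, the summed level of 9 elongating-spermatid markers in those cells (CPM, log axis). VC-T 1 lies with the 3 T libraries in both panels, at 18.0% and 576 CPM.

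RNA of elongating spermatids in the mid-pachytene profile differed by group in the opposite sense. The 9 markers summed to 653, 282 and 480 CPM in T, and to 10575, 7980 and 9856 CPM in UC. They summed to 576, 3693 and 7681 CPM in VC-T, to 5968 to 10072 CPM in VC-R, and to 12581, 12796 and 32781 CPM in R. All 9 markers were detected in every library, and the T values lay below those of every other library except VC-T 1.

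Markers of somatic cells were low in most libraries: the 5 Leydig markers summed to 1.78 to 9.89 CPM, the 4 myoid markers to 0 to 14.8 CPM and the 3 endothelial markers to 0 to 5.45 CPM. The 5 macrophage markers summed to 0 to 15.6 CPM in 14 libraries and to 63.0 CPM in R 3. The 8 Sertoli markers summed to 5.64 to 368 CPM, with the highest value in R 3. Early prophase cells were scarce where mid-pachytene cells were many: T 1, T 2, T 3 and VC-T 1 held 2, 2, 4 and 2 of them, and the other libraries 14 to 87.

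A pair of measures of the cells separated T from all 6 controls, VC-T 1 included, although neither passed after adjustment over 8 values. At 2000 UMIs per cell, T cells had 1368 ± 8.78 genes and the controls 1320 ± 22.7 (n = 3 and 6, exact permutation p = 0.0238, adjusted p = 0.0952). Mitochondrial genes took 1.79% ± 0.0498 of UMIs in T and 1.59% ± 0.0532 in the controls (exact p = 0.0238, adjusted p = 0.0952). The X-linked percent was 0.113% in T and 0.114% in its controls (exact p = 0.952), and the Y-linked percent was 0.00846% and 0.00681% (exact p = 0.262). The median UMIs per cell were 4008 ± 766 in T and 6372 ± 1830 in the controls (exact p = 0.0952).

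In R the X-linked percent was higher than in all 6 controls, at 0.352% ± 0.267 against 0.135% ± 0.0239 (exact permutation p = 0.0238, adjusted p = 0.0635). R 3 decided the size of this difference, with 0.660% against 0.203% and 0.193% in R 1 and R 2. After subtraction of the estimated free RNA the values were 0.0484% in R and 0.0447% in the controls (exact p = 0.857). The Y-linked percent was 0.0122% in R and 0.00650% in the controls (exact p = 0.0476, adjusted p = 0.0952). With the rule applied after thinning to 2000 UMIs, the X-linked percent was 0.112%, 0.165% and 0.132% in R 1, R 2 and R 3. The controls then lay between 0.0897% and 0.108%.

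Expression was compared in UMIs summed over the mid-pachytene cells of each library, so that the mouse was the replicate. A gene was called when its adjusted p (edgeR quasi-likelihood test, Benjamini-Hochberg) was under 0.05 and its log2 fold change was over 1 in either direction. In T against UC, 316 of 9145 genes tested were called (3.46%), 95 higher (1.04%) and 221 lower (2.42%) in T. Genes of mid-pachytene cells were those with a mean level over all 15 libraries at least as high there as in the other kept cells. They made up 6779 of the 9145 genes tested but 47 of the 316 called, with 38 higher and 9 lower. The other 269 called genes, with 57 higher and 212 lower, were more abundant in other cells. The means that set these classes include the T libraries under test. The split by direction is therefore partly fixed by the definition and was not tested. With the estimated free RNA subtracted, 311 genes were called, 284 higher and 27 lower, so the balance of directions turned with this step, and 96 of the 316 genes (30.4%) were among them. With equal cell numbers per library 95 genes were called, of which 59 were among the 316 (18.7%).

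**Figure D4:**
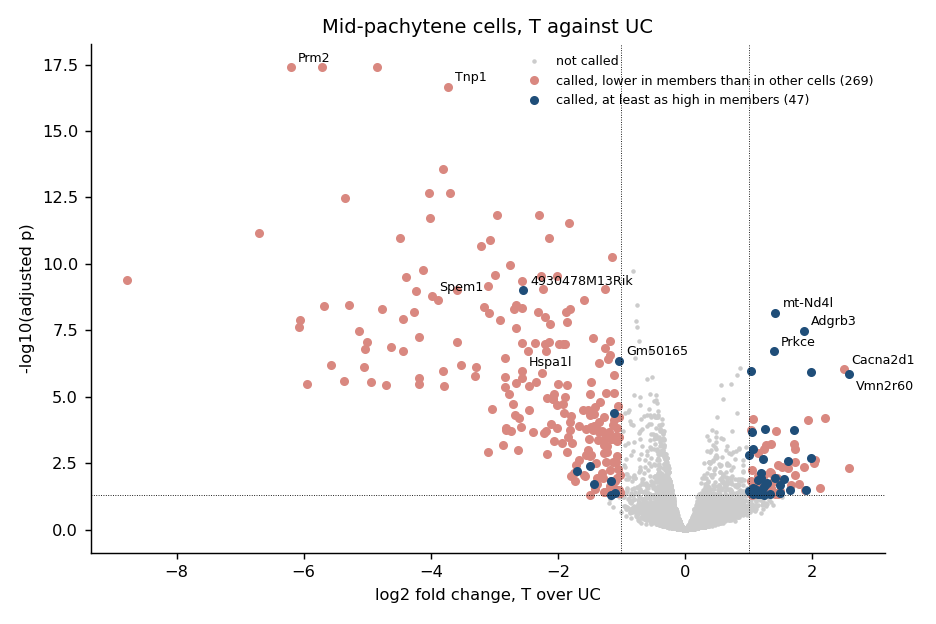
Log2 fold change of T over UC against -log10 of the adjusted p (edgeR, Benjamini-Hochberg) for the 9145 genes tested in mid-pachytene cells; dotted lines mark the thresholds. Of the 269 called genes that are lower in mid-pachytene cells than in other cells, 212 lie on the left and 57 on the right. Of the 47 called genes at least as high in mid-pachytene cells, 9 lie on the left and 38 on the right.

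The strongest fall among the genes of mid-pachytene cells was that of 4930478M13Rik, a non-coding RNA of 2.93 kb that runs antisense to Dip2b on chromosome 15 (chr15:100105234-100108161, GRCm38). It was at 10.8, 9.09 and 8.46 CPM in T, against 55.5, 53.4 and 51.4 in UC and 42.1, 32.7 and 68.0 in VC-T. It was at 41.5, 51.8 and 52.6 CPM in VC-R and 50.1, 47.9 and 34.6 in R. The T libraries lay below all 12 others, and VC-T 1, at 42.1 CPM, stood with the controls. The log2 fold change was -2.55 (SE 0.21, edgeR adjusted p = 9.83e-10) against UC and -2.81 (SE 0.31, adjusted p = 6.20e-07) against VC-T. R against UC gave -0.24 (adjusted p = 0.676). Dip2b on the opposite strand gave 0.13 in T against UC (adjusted p = 0.819). Whether the count used strand is not given in the sources used here, so reads of the antisense pair cannot be told apart with certainty.

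Adgrb3, an adhesion receptor gene that spans 762 kb of chromosome 1, moved the other way. It was at 83.7, 68.1 and 85.2 CPM in T, against 20.96, 16.0 and 22.2 in UC, 31.1, 16.3 and 15.4 in VC-T, 28.5, 19.4 and 20.8 in VC-R and 26.9, 18.5 and 28.4 in R. T lay above all 12 other libraries, VC-T 1 included. The log2 fold change was 1.87 (SE 0.19, edgeR adjusted p = 3.28e-08) against UC and 2.18 (SE 0.30, adjusted p = 2.36e-05) against VC-T, and 0.34 in R against UC (adjusted p = 0.710).

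Prkce, which encodes protein kinase C epsilon, was at 89.7, 80.6 and 81.8 CPM in T and at 26.9 to 45.6 CPM in the other 12 libraries. It rose by 1.40 on the log2 scale against UC (SE 0.16, edgeR adjusted p = 1.95e-07) and by 1.29 against VC-T (adjusted p = 0.00115). Prkca, for the alpha form of the kinase, was at 49.4, 39.8 and 57.5 CPM in T and 23.4, 17.8 and 22.2 in UC, with a log2 fold change of 1.07 (adjusted p = 0.000950). The T values of both genes lay above those of every other library.

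Vmn2r60, of a large vomeronasal receptor family whose near-identical copies make its counts uncertain, was at 32.9, 32.9 and 28.2 CPM in T and 6.17, 5.34 and 3.51 in UC, with VC-T between 1.28 and 8.17, a log2 fold change of 2.58 (SE 0.32, adjusted p = 1.37e-06).

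Further genes of mid-pachytene cells that were higher in T than in UC were Arl15, a small GTPase gene (log2 fold change 1.72, edgeR adjusted p = 0.000182), Fzd3, a Wnt receptor (1.98, adjusted p = 0.00204), Gmds, of the GDP-fucose pathway (1.01, adjusted p = 0.00162), Rapsn, a receptor-clustering protein of muscle (1.05, adjusted p = 0.000219) and the non-coding 4930412C18Rik (1.26, adjusted p = 0.000161). Rapsn was at 61.8, 55.5 and 48.5 CPM in T but also at 40.6, 32.7 and 62.9 in VC-T, and against VC-T it gave -0.20 (adjusted p = 0.698). Likewise 4930412C18Rik gave 0.10 against VC-T (adjusted p = 0.90) and Arl15 1.08 (adjusted p = 0.170). Gmds was no longer called in 4 of 6 fits that left out 1 library, and Prkca and Rapsn in 2 of 6 each.

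Mitochondrial transcripts mt-Nd4l and mt-Atp8 were also higher than in UC in the other injected groups, except mt-Atp8 in VC-T 2. mt-Nd4l was at 181, 166 and 140 CPM in T and 60.4, 49.9 and 60.8 in UC, but at 85.7 to 98.1 in VC-R and 87.5 to 169 in R. Its log2 fold change was 1.42 against UC (SE 0.13, edgeR adjusted p = 6.83e-09) and 0.64 against VC-T (adjusted p = 0.0339). mt-Atp8 was at 63.2, 49.9 and 42.3 CPM in T, 11.1, 14.2 and 12.9 in UC, 45.9, 8.17 and 29.5 in VC-T, 38.0, 34.2 and 29.4 in VC-R and 47.1, 52.3 and 50.7 in R, with a log2 fold change of 1.99 against UC (adjusted p = 1.18e-06) and 0.86 against VC-T (adjusted p = 0.131). Both genes overlap a neighbouring mitochondrial gene on the same strand, so their counts are uncertain.

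Besides 4930478M13Rik, the genes of mid-pachytene cells that fell in T were mostly non-coding RNAs. Gm50165, itself among the leading genes of the cells, was at 51.4, 53.6 and 53.6 CPM in T and 106, 97.9 and 102 in UC, a log2 fold change of -1.04 (SE 0.12, edgeR adjusted p = 4.32e-07), and it fell by 1.08 against VC-T (adjusted p = 0.000614). VC-T 1, at 96.5 CPM, again stood with UC, while R 3 was at 58.1 CPM. Gm35667 was at 5.52, 6.90 and 5.08 CPM in T and 14.8, 21.4 and 12.9 in UC (log2 fold change -1.49, adjusted p = 0.00419), and R lay at 4.36 to 9.73 CPM (-1.0 in R against UC, adjusted p = 0.507). Gm50218, antisense to Rsph1, was at 24.9, 28.2 and 26.5 CPM in T and 50.3 to 57.0 in UC (-1.12, adjusted p = 3.93e-05).

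The remaining 5 named genes that were lower in T rested on few UMIs. They were 1700123J17Rik, AC154200.1, Adh4, an alcohol dehydrogenase gene, Gm31135 and Smyd1, a muscle methyltransferase gene, with log2 fold changes of -1.71, -1.17, -1.43, -1.10 and -1.17 (edgeR adjusted p = 0.00637 to 0.0477). Gm31135 was called in 0 and Smyd1 in 1 of 6 fits that left out 1 library.

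**Figure D5:**
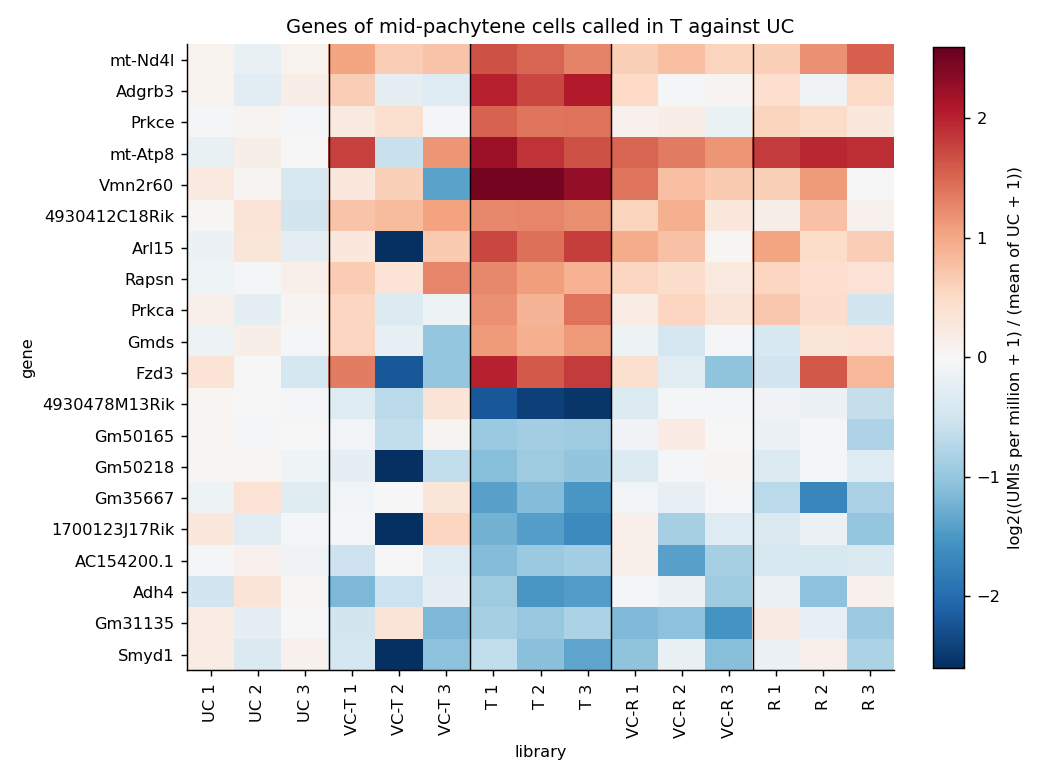
Level of 20 of the 21 named genes of mid-pachytene cells called in T against UC, in each of the 15 libraries, as log2 of (CPM + 1) over the UC mean + 1, clipped at the ends of the colour bar; VC-T 2 (11 cells) holds zeros. For 4930478M13Rik, Adgrb3, Prkce, Vmn2r60 and Gm50165 the 3 T columns stand apart from VC-T 1, whereas for mt-Nd4l and Rapsn all injected groups lie to the same side of UC.

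VC-T 1 lay differently in these sets of genes. On log2(CPM + 1) it lay past the midpoint between UC and T for 236 of the 269 called genes that were more abundant in other cells (87.7%), and for 24 of the 47 genes of mid-pachytene cells (51.1%). For the 47, VC-T 2 and VC-T 3 were past the midpoint in 17 (36.2%) each, the VC-R libraries in 16 to 20 and the R libraries in 15 to 18; for the 269, VC-T 2 was past it in 148 (55.0%), VC-T 3 in 84 (31.2%), the VC-R libraries in 34 to 53 and the R libraries in 19 to 46. The contrast was smaller by a looser measure, since VC-T 1 lay beyond all UC libraries on the side of T for 31 of the 38 higher and 7 of the 9 lower genes of mid-pachytene cells. These counts describe single libraries and were not tested.

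Genes called higher in T were longer at the median than the genes tested. The genomic span, from first to last annotated base, had a median of 43.1 kb in the 38 higher genes of mid-pachytene cells, 15.4 kb in the 9 lower ones and 23.8 kb over the 9141 genes tested that had a position. Of the 38, 13 (34.2%) spanned at least 100 kb, as did 2 of the 9 lower genes (22.2%), against 12.7% of all tested. Adgrb3 (762 kb), Prkce (490 kb), Prkca (411 kb), Gmds (519 kb) and Arl15 (363 kb) were among them. The 57 higher genes that were more abundant in other cells had a median of 48.7 kb, and 20 of them (35.1%) spanned at least 100 kb. The share of all UMIs of mid-pachytene cells in genes of 100 kb or more was 11.47%, 11.10% and 11.28% in T, 10.5%, 10.1% and 10.2% in UC, 11.1%, 10.4% and 9.26% in VC-T, 9.89% to 11.0% in VC-R and 10.1% to 11.3% in R, so VC-T 1 and R 2 lay within the range of T. Whether intronic reads were counted is not stated in the sources used here, and gene length was not tested as a factor.

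Most meiotic gene groups gave few or no differences between T and UC. At an adjusted p under 0.05 in the edgeR fit, without the fold threshold, 9.91% of all genes tested passed, 3.23% higher and 6.68% lower in T. Of 10 tested synaptonemal complex and axis genes outside the rule, 1 passed: Hormad2, at 83.4, 57.1 and 82.9 CPM in T and 40.7, 44.5 and 49.1 in UC, with a log2 fold change of 0.63 (adjusted p = 0.0204). Of 20 recombination genes 1 passed, with a higher level in T. None of 11 sex body and silencing genes passed. The medians of the 3 lists were -0.0049, 0.04 and 0.08 on the log2 scale, beside 0.01 over all genes tested.

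The targets of the drug and the regulators of the stage were among the groups without called genes. None of 12 BET protein and P-TEFb genes passed in T against UC: Brdt was at 335, 314 and 337 CPM in T and 274, 244 and 299 in UC (log2 fold change 0.17, edgeR adjusted p = 0.215). Of 16 meiotic transcription regulators 1 was lower, Fhl5, a CREM coactivator (-0.83, adjusted p = 0.0302), which was more abundant in other cells; Mybl1 gave -0.03 and Tcfl5 0.01 (adjusted p = 0.930 and 0.964). Of 20 piRNA pathway genes 1 was lower, Gtsf1 (-0.22, adjusted p = 0.0373). None of 14 division cyclins and kinases and none of 7 apoptosis and p53 genes passed; Hspa2, a chaperone of late prophase, gave -0.02 (adjusted p = 0.886).

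Of 26 tested spermatid genes whose transcription begins in pachytene, 10 were lower and 0 higher in T than in UC, with a list median of -0.09 on the log2 scale. Of the 10, 7 were more abundant in other cells, and the exceptions were Ldhc, Cetn1 and Ybx2. The summed elongating-spermatid markers were low in the same libraries, at 282 to 653 CPM in T against 7980 to 10575 CPM in UC, and their part in these falls was not tested. The 2 largest falls were those of Hspa1l, a testis heat shock gene, at 6.35, 4.70 and 5.64 CPM in T and 34.5, 14.2 and 40.9 in UC (log2 fold change -2.57, edgeR adjusted p = 1.08e-06), and Calr3, a calreticulin of spermatids (-2.17, adjusted p = 0.00146). VC-T 1, at 7.40 CPM of Hspa1l, lay with T. The other 8, Meig1, Odf2, Ldhc, Cetn1, Crisp2, Tcp11, Spink2 and Ybx2, fell less than the fold threshold: Ldhc was at 5680, 6268 and 5787 CPM in T and 6837, 7177 and 6964 in UC (-0.33, adjusted p = 0.000420). Against VC-T 1 of the 26 was lower, Spink2, and 1 higher, Spaca1.

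A list of 16 BRDT-bound spermatocyte genes, which the study drew up with these libraries in hand and which is therefore no independent evidence, gave 4 lower genes among 12 tested and 0 higher. These were Spem1, Hspa1l, Akap1 and Prdx4, with log2 fold changes of -3.98, -2.57, -1.80 and -1.18 (edgeR adjusted p = 1.67e-09, 1.08e-06, 5.16e-05 and 0.00580), and all 4 were more abundant in other cells. Against VC-T, Spem1 was lower (-2.72, adjusted p = 0.0125) and Tsga8 higher (1.29, adjusted p = 0.0106). VC-T 1 stood at 3.85 CPM of Spem1, beside 2.76, 1.88 and 1.69 in T and 40.7, 21.4 and 36.2 in UC. The part of spermatid RNA in these falls was not tested beyond the values given for the markers.

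All 9 elongating-spermatid markers were lower in T than in UC, with log2 fold changes from -6.20 for Prm2 to -1.53. Tnp1, a transition protein gene, was at 123, 58.0 and 70.5 CPM in T, 1198, 988 and 1052 in UC, and 92.1, 409 and 1134 in VC-T (log2 fold change -3.73, edgeR adjusted p = 2.16e-17). Both spermatogonial markers that could be tested were higher in T than in UC: Uchl1 by 1.35 (adjusted p = 0.000610) and Hells, a chromatin remodeller that was also a gene of mid-pachytene cells, by 0.84 (adjusted p = 0.0125). Against VC-T neither passed, and the 2 values were 0.41 and 0.74. VC-T against UC gave a list median of 0.50. Of 12 heat shock and ER stress genes 3 were lower than in UC, Hsp90aa1 by 0.36, Hsp90ab1 by 0.25 and Herpud1 by 0.71 on the log2 scale. Against VC-T none of 13 passed. None of the 5 round spermatid markers tested passed against UC.

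Against VC-T without VC-T 1, 160 of 10255 genes were called (1.56%), 78 higher (0.761%) and 82 lower (0.8%) in T. Genes of mid-pachytene cells made up 7388 of the 10255 tested and 42 of the 160 called, 28 higher and 14 lower. This contrast rested on 2 control libraries, of which VC-T 2 had 11 cells: without VC-T 3, 5 genes were called, and with VC-T 1 added, 14. It named Zbtb20, a zinc finger gene of 767 kb, at 202, 181 and 189 CPM in T and 57.2 and 85.9 in VC-T 2 and 3 (log2 fold change 1.08, edgeR adjusted p = 0.000156); against UC, at 124 to 137 CPM, it gave 0.48 (adjusted p = 0.000900). Kcnk10, a leading gene of the cells, was at 134, 114 and 118 CPM in T and 261 and 226 in VC-T 2 and 3 (-1.07, adjusted p = 5.27e-06), and -0.65 against UC (adjusted p = 5.06e-05). Hormad2 was again higher, by 1.0 on the log2 scale (edgeR adjusted p = 0.0397; 3.61% of genes tested passed at an adjusted p under 0.05), below the fold threshold. The contrasts with UC and with VC-T share the T libraries.

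UC differed from the vehicle controls at a few genes, among them the ribosomal protein gene Rps27. In VC-T against UC 45 of 7935 genes were called (0.567%), 14 higher (0.176%) and 31 lower (0.391%). Gm10076, annotated as a long non-coding RNA, was at 137, 160 and 167 CPM in UC and at 226 to 523 CPM in all 12 other libraries (log2 fold change 1.66 in VC-T against UC, edgeR adjusted p = 4.01e-14, and 0.98 in VC-R against UC, adjusted p = 0.00160). Rps27 was at 437 to 504 CPM in UC and 518 to 1052 elsewhere (1.06 in VC-T against UC, adjusted p = 1.04e-09). In VC-R against UC 1 of 7877 genes was called (0.0127%), mt-Atp8. Differences of T or R from UC at these genes are shared with vehicle.

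After recovery no gene was called once genes of low count were left out. In R against UC 0 of 7972 genes passed (0.0%) in the edgeR test and 785 had an unadjusted p under 0.05; DESeq2 called 7. In R against VC-R 0 of 8447 passed (0.0%), 628 had an unadjusted p under 0.05 and DESeq2 called 0. Without the low-count filter, 561 genes were called in R against UC and 612 in R against VC-R, all of them higher in R. R 3, with its large estimated share of free RNA, weighed on the first count with the filter: without R 3, 31 genes were called, all higher in R. In simulated data with the R and UC libraries, 65% of genes changed 2-fold and 100% of genes changed 4-fold reached an adjusted p under 0.05. The fold threshold was not applied there, and changed genes were drawn from those above a minimum expected count. These shares are therefore not shares of called genes, and 2-fold changes could be missed.

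The genes that set T apart gave no adjusted p under 0.05 in R. Adgrb3 gave 0.34 in R against UC and 0.13 in R against VC-R (edgeR adjusted p = 0.710 and 0.947), and Prkce 0.50 and 0.43 (adjusted p = 0.507 and 0.657). Prkce, at 45.6, 42.5 and 37.1 CPM in R, lay above all UC libraries (29.2 to 32.1 CPM) and all VC-R libraries (26.9 to 34.2 CPM), whereas Adgrb3 overlapped both. A p that misses the threshold does not show equal levels. None of the gene lists had a member that passed in R against either control. The markers of elongating spermatids, higher in R than in the controls in each of the 3 libraries, gave list medians of 0.95 against UC and 1.18 against VC-R on the log2 scale, beside 0.01 and -0.01 over all genes tested. Other lists stood as high in these contrasts: the medians were 1.43 and 1.53 for round spermatid markers, 2.09 and 1.95 for the 3 Sertoli markers tested, and 0.93 and 1.00 for the BRDT-bound list, in which every gene tested had a value above 0.

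The effect of T was also compared between mid and late pachytene cells of the same libraries. None of 8716 genes passed (0.0%) for a difference between the cell sets in the edgeR fit with the library as a block; 534 had an unadjusted p under 0.05, and DESeq2 was not run on this design. Adgrb3 gave 1.87 in mid-pachytene and 2.49 in late pachytene cells (adjusted p = 3.28e-08 and 0.0538), and Vmn2r60 2.58 and 4.63 (adjusted p = 1.37e-06 and 0.00577). In round spermatids 4930478M13Rik gave -2.81 (adjusted p = 1.01e-07) and Adgrb3 1.36 (adjusted p = 0.000396). These genes were thus called in cells after meiosis as well.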

How the data were processed

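Single-cell 3′ RNA-seq was measured in 15 mouse testis libraries. The deposited matrices hold whole UMI counts, by gene and droplet barcode and without normalization, which the authors made by aligning reads to mm10 with Cell Ranger (3.0.0 per the labels; 7.0.0 in the matrix headers); whether introns and strand entered the count is not given in the sources used here, and the authors' free RNA and doublet corrections had not been applied to these values. All libraries were pooled and sequenced together per the study, so no batch could be compared.

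Members were found by the stated rule in each library, and their UMI counts were summed per library and tested with edgeR 4.0.16 (R 4.3.3; TMM, low-count filter, quasi-likelihood, Benjamini-Hochberg over all genes tested; called at adjusted p under 0.05 and a log2 fold change over 1). Shares and per-cell measures were compared by exact permutation over libraries (scipy 1.17.1), adjusted over 8 values. Positions came from GENCODE vM21 (32235 of 32285 genes) and promoters from RefSeq GRCm38.p6. The script was tested on simulated data, where a gene counted as recovered at an adjusted p under 0.05 without the fold threshold. Changed genes were drawn from those above a minimum expected count. In T against UC, 87% of 2-fold and 98.95% of 4-fold changes were recovered, with 10 false positives among 9158 genes.

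Genes named per comparison were, among called genes whose groups did not overlap, the 12 with the smallest adjusted p in each direction among genes at least as high in members as elsewhere and the 5 among the rest; genes of the fixed lists were added, and Dip2b, an overlapping gene, was chosen after its values were seen. A few genes are not reported here. Alternatives were DESeq2 1.42.0, RLE size factors, no low-count filter, a replicate block, 1 fit over 14 libraries, a minimum of 5 UMIs on the first gene set, removal of the top 5.4% of cells by a doublet score, thinning to 2000 UMIs, equal cell numbers, free RNA subtraction (estimated from low-UMI barcodes) and leaving out each library. The gene span, the placing of single libraries and the test of the difference between the 2 times were added after seeing the data. The members and lists were chosen with earlier results of these data known.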

Additional observations from a re-analysis of the deposited data

Results flagged for a closer look

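The effect of JQ1 at the end of dosing differed from that 6 wk later at 30 of 9673 genes tested (0.31%), by an edgeR test of (T minus VC-T) minus (R minus VC-R) over the 11 libraries without VC-T 1, a test added after seeing the data. Of these, 3 were higher, among them Zbtb20 (log2 difference 1.21, adjusted p = 0.0265) and Vmn2r60 (3.97, adjusted p = 0.0423), and all 3 were genes of mid-pachytene cells. Of the 27 lower genes, 26 were more abundant in other cells, led by Prm1 (-6.64, adjusted p = 0.00365), and 1 was a gene of mid-pachytene cells, 4930478M13Rik (-2.63, adjusted p = 0.00851). Genes of mid-pachytene cells made up 6883 of the 9673 genes tested, and the means that set this class include the libraries under test. Adgrb3 gave 2.08 (adjusted p = 0.0557). Zbtb20 and Vmn2r60 were each still called in 3 of 11 fits that left out 1 library. Without VC-T 3, 0 genes were called, and without R 3, 104; with free RNA subtracted 124 were called, 120 higher and 4 lower, and 3 of the 30 genes were among them.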

How the results depend on the processing

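Counts of called genes moved with the processing, and the cause was not tested. In T against UC (316), RLE size factors gave 315 and DESeq2 243; 166 were called in 1 fit over 14 libraries, 196 with doublets removed, 125 with cells thinned to 2000 UMIs and 95 with equal numbers of cells, and 260 to 327 without 1 library. The share of higher genes was unstable: 131 of 270 were higher with at least 5 UMIs on the first gene set, 76 of 196 with doublets removed, 41 of 95 with equal cell numbers, 37 of 243 with DESeq2, 18 of 125 after thinning and 26 of 166 in the fit over 14 libraries. In T against VC-T (160), DESeq2 gave 10, no low-count filter 244, the 14-library fit 58, thinning 55, equal cell numbers 7, VC-T 1 included 14, and leaving out 1 library 5 to 202. In R against UC (0), DESeq2 gave 7, no filter 561, the 14-library fit 1, the minimum of 5 UMIs 10, free RNA subtracted 2, and leaving out 1 library 0 to 31. In R against VC-R (0), no filter gave 612 and thinning 5. In VC-T against UC (45), DESeq2 gave 8, the 14-library fit 5, doublets removed 25, thinning 22, equal cell numbers 1, free RNA subtracted 21, VC-T 1 included 71, and leaving out 1 library 11 to 67. In VC-R against UC (1), DESeq2, the 14-library fit, doublet removal and thinning gave 0, no filter, 5 UMIs, equal cell numbers and free RNA subtraction gave 3, and leaving out 1 library 0 to 5. For the difference between mid and late pachytene (0), no filter gave 5, doublet removal 1 and free RNA subtraction 6. For the difference between the times (30), no filter gave 274, free RNA subtraction 124, 5 UMIs 54, and leaving out 1 library 0 to 104.

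In no comparison did all same-numbered pairs correlate above 0.1 in their deviations: the values were 0.0438, 0.0996 and 0.0195 in T against UC, 0.16, 0.135 and 0.02 in T against VC-T, and -0.284, 0.26 and -0.00922 in R against VC-R, and lay from -0.0901 to 0.101 in the others. The numbers were therefore not read as pairs. With the replicate block 316 genes were called in T against UC, 310 of them shared, 94 in T against VC-T (160 without it) and 23 in VC-T against UC (45 without it).

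The X-linked percent of T minus controls was near 0 (-0.000289) and changed sign with 5 UMIs (0.0118), doublets removed (0.0104), the rule after thinning (0.00425), vehicle alone as control (0.0204), free RNA subtracted (0.0101) and single libraries left out (-0.0136 to 0.0155). Its mid minus late difference in T (0.165) was -0.00549 against UC alone and -0.00830 to 0.215 without 1 library, and in R (-0.338) it was 0.0190 with the rule after thinning. Without 1 library, R minus controls spanned -232.2 to 2914 median UMIs and -7.19 to 18.8 genes per cell. With doublets removed, 4 values of R minus controls passed after adjustment: the share of kept cells (-2.13 percentage points), the X-linked percent (0.229), its mid minus late difference (-0.321) and the Y-linked percent (0.00633). Against VC-T, Bc1 reversed with VC-T 1 included (-0.25) and Gm21149 after thinning (0.67). 4930478M13Rik, Adgrb3, Prkce and Gm50165 were called in T against UC under all 10 other settings and all 6 fits without 1 library. VC-T 2 was limited most by its few cells, 11 under the main rule and 47 with the rule applied after thinning.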
